A study of Mus musculus with 2 samples.

Results

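Goblet cells make the mucus that lies over the intestinal epithelium, and 10 of their genes were followed between the intestine of ERAP1 wild-type (WT) mice and of mice labelled ERAP1+/-. They were Muc2, Fcgbp, Clca1 and Zg16 for proteins of the mucus gel and its granules, Tff3 and Spink4 for small secreted peptides, Agr2 for a folding enzyme, Atoh1 and Spdef for transcription factors, and Hepacam2 for a membrane protein. These 10 of the 40879 gene symbols in the count files were picked out by symbol as goblet cell genes after their reads and differences in this comparison had been seen. The differences below are therefore a description, and none was tested.

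The mice were C57BL/6, 8 weeks old at the start, and were described as germ-free and as kept in a specific pathogen-free facility. In the mutant line an ERAP1 allele (tm1a) had been crossed to a Cre strain, not further named, that removes exons 6 and 7, and the controls carried no mutant allele. The labels give tissue and genotype and name no treatment. RNA of 3 mice per genotype was pooled into 1 library and sequenced from the 3' ends of transcripts, so that reads do not grow with transcript length. Other differences between genes in how reads were captured and assigned were not checked. Levels of different genes are set side by side with that limit. With 1 library per genotype no difference has a replicate check and the variation between mice cannot be estimated.

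Counted reads came to 8114826 for WT and 8907515 for the library labelled ERAP1+/-. The WT library contained 229 reads of Erap1 and the other library 2, 0.730% of the WT level (95% interval 0.0878% to 2.67%). This goes against a label under which 1 intact copy remains. Reads from a 3' kit should lie outside the deleted exons, but where the Erap1 reads lie was not checked. The second library is therefore named here by its label. Levels are given as CPM, the reads of a gene scaled to a common library size, with the trimmed mean of M values method (TMM) as the scale. Differences are given on the log2(CPM + 1) scale as the library labelled ERAP1+/- minus WT. Intervals are exact 95% intervals for a ratio or a share and cover counting error only. The libraries also differed in markers of other tissues: the 10 epidermis markers summed to 2607 CPM for WT and 37.3 CPM for the other library, the 10 skeletal muscle markers to 843 and 18.8, and the 10 smooth muscle markers to 11626 and 5975. Xist had 1635 and 6451 reads and the Y-linked gene Ddx3y 319 and 29, so that a difference of sex between the pools cannot be told apart from genotype. The part of these differences in the results below was not tested.

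Goblet cells arise from crypt progenitors of the secretory lineage, which escape Notch signaling and express ATOH1, and SPDEF then drives their maturation. Their main product is MUC2, a very large glycoprotein that is folded in the endoplasmic reticulum with the help of the disulfide isomerase AGR2, packed into granules and released to form the gel of the colon. FCGBP, CLCA1 and ZG16 are stored and released with it. CLCA1 is a metalloprotease that acts on the gel, ZG16 is a lectin that binds bacterial cell walls, and TFF3 is a trefoil peptide of epithelial repair.

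Markers of the colon were abundant, and most of those of the small intestine were near 0. Car4, a carbonic anhydrase of the colon surface, had 15163 and 8391 reads. The small intestine genes Lct, Fabp1 and Apoa4 had between 0 and 5 reads in either library. Of the same list, Apob had 131 and 171 reads, Fabp2 56 and 299, and Rbp2 52 and 34. Muc5ac, the gel-forming mucin of stomach and airway, had no read in either library, which allows up to 0.386 CPM for WT and 0.322 CPM for the other library. The defining goblet cell markers are members themselves. All 10 had reads in both libraries, and 9 of the 10 passed a log2 value of 4 in 1 or both libraries. The exception was Spdef, which reached 3.74.

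The region before the start site is shown for the 3 members that passed 2-fold, Muc2, Hepacam2 and Atoh1, and for Fcgbp, which did not. ATOH1 binds E-boxes, short motifs of which CAGCTG is one. The 250 bases before the RefSeq start on GRCm38.p6 are written 5' to 3' on the strand of the gene. Capitals mark the E-box CAGCTG and the SPDEF core AGGAT on either strand. The windows lie at chr7:141690090-141690339 (plus strand) for Muc2, chr6:3494499-3494748 (minus strand) for Hepacam2, chr6:64728875-64729124 (plus strand) for Atoh1 and chr7:28070986-28071235 (plus strand) for Fcgbp.
Muc2: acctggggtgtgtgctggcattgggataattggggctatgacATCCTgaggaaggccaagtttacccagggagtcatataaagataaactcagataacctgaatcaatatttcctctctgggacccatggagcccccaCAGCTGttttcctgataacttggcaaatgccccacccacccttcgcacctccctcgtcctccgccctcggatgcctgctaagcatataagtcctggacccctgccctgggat
Hepacam2: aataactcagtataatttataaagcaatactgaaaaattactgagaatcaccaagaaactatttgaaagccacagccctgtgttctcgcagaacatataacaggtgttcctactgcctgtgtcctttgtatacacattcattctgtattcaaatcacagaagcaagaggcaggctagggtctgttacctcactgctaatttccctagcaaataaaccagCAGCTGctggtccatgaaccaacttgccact
Atoh1: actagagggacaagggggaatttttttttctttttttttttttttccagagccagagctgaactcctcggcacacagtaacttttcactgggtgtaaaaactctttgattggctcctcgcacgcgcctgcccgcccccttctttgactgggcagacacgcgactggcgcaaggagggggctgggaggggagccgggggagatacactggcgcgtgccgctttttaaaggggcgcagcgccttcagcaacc
Fcgbp: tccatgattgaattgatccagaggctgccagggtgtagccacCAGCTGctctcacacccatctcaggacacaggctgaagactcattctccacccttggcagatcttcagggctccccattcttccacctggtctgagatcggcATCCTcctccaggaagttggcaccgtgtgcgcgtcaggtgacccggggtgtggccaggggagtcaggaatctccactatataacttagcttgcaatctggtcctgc

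RefSeq gave such a window for 6 of the 10 members, and the others were Agr2 and Spdef. Neither of these holds CAGCTG, while Fcgbp, the window shown of a member not past 2-fold, does. The motif CAGCTG was found in 3 of the 6, beginning 112 bases before the start of Muc2, 31 bases before that of Hepacam2 and 208 bases before that of Fcgbp. Of all 32851 windows of this length, 13.0% hold it. The related E-box CAGATG was in none of the 6, against 14.4% of all windows, and AGGAT was in 4, against 35.8%. Because the members were selected with this contrast in view, nothing is read from these shares, and binding was not tested. The window of Atoh1 held none of these motifs, and no motif found overlapped another. The letters of CAGCTG read the same on both strands. A further start of Hepacam2 lies upstream in GENCODE M21, where the gene runs from 3457096 to 3498298 on the minus strand of chromosome 6.

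Every member had a higher level in the library labelled ERAP1+/-, by between 1.18 times (Tff3) and 2.67 times (Atoh1). Summed over the members, the level was 8962 CPM for WT and 14700 CPM for the other library (69641 and 136741 reads), a ratio of 1.64 (95% interval 1.63 to 1.66). The median log2 difference of the 10 was 0.81, beside -0.03 over the 8013 genes that passed the level of 4, whose quartiles were -0.28 and 0.21. Of the 9 members past that level, 3 were more than 2-fold higher and none was more than 2-fold lower. Atoh1 reached the level only in the library labelled ERAP1+/-, with a value of 5.10 there and 3.75 in WT. Over all genes past the level of 4, 1.39% were more than 2-fold higher and 3.96% more than 2-fold lower. Because the members were selected with this contrast in view, nothing is read from the difference between these shares. In whole tissue, a greater number of goblet cells, more RNA per goblet cell and a difference in the piece of gut sampled cannot be told apart. The markers of epidermis, skeletal muscle and smooth muscle differed between the libraries, as given above.

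**Figure D1:**
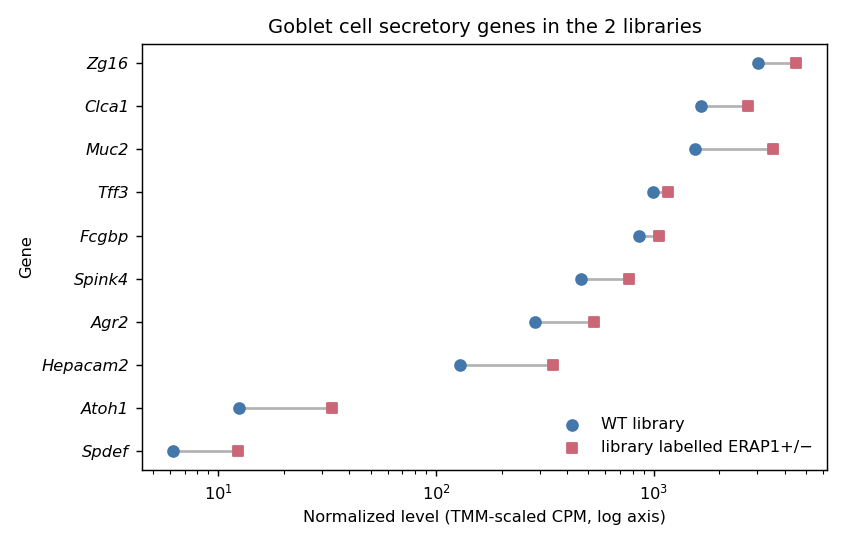
TMM-scaled CPM (log axis) of each member in the WT library (circles) and the library labelled ERAP1+/- (squares), 1 library per genotype. Every square lies to the right of its circle, and the levels run from 6.18 CPM for Spdef in the WT library to 4523 CPM for Zg16 in the other.

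The gel and granule proteins carried most of the reads. Zg16 (chromosome 7, 127050156 to 127087328 in GENCODE M21 on GRCm38) was the most abundant member, with 23458 reads for WT and 42072 for the library labelled ERAP1+/-, or 3019 and 4523 CPM. It ranked 15 and 11 among all symbols, and its ratio was 1.50 (1.47 to 1.52). Muc2 (chromosome 7, 141690340 to 141754693) had 12020 and 32939 reads, or 1547 and 3541 CPM, a ratio of 2.29 (2.24 to 2.34). The mucin gene thereby passed from rank 47 to rank 14. The annotation marks the Muc2 locus as fragmented in this assembly, which can affect how its reads were assigned.

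Clca1 (chromosome 3, 145003817 to 145032776) had 12826 and 25261 reads, or 1651 and 2716 CPM. Its ratio was 1.65 (1.61 to 1.68). Fcgbp (chromosome 7, 28071236 to 28120862), which encodes a large protein bound to the MUC2 network, had 6642 and 9825 reads, or 855 and 1056 CPM, and a ratio of 1.24 (1.20 to 1.27). The 4 gel and granule genes thus differed from one another: the interval of Muc2 lay above that of Clca1, that of Clca1 above that of Zg16, and that of Zg16 above that of Fcgbp.

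Both secreted peptides were higher, Spink4 more than Tff3. Tff3 (chromosome 17, 31125306 to 31129646) had 7712 and 10874 reads, or 992 and 1169 CPM, and the ratio nearest to 1 of all members, 1.18 (1.14 to 1.21). Spink4 (chromosome 4, 40920052 to 40931395), a Kazal-type peptide of goblet cells, had 3612 and 7197 reads, or 465 and 774 CPM, a ratio of 1.66 (1.60 to 1.73). Agr2 (chromosome 12, 35992907 to 36004087), the folding enzyme on which MUC2 depends, had 2225 and 4956 reads. These are 286 and 533 CPM, a ratio of 1.86 (1.77 to 1.96).

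The transcription factors had few reads and wide intervals. Atoh1 (chromosome 6, 64729125 to 64731245), a gene of 1 exon, had 97 and 310 reads, or 12.5 and 33.3 CPM, a ratio of 2.67 (2.12 to 3.39). Spdef (chromosome 17, 27714352 to 27728955) had 48 and 115 reads, or 6.18 and 12.4 CPM. Its log2 difference was 0.90, and the interval of its ratio ran from 1.42 to 2.86. The interval of Spdef overlaps those of all other members but Fcgbp and Tff3, which lie below it. That of Atoh1 overlaps those of Muc2, Hepacam2 and Spdef and lies above those of the remaining members.

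Hepacam2, an immunoglobulin-like membrane protein, was higher by about the same ratio as Atoh1. Its reads numbered 1001 for WT and 3192 for the library labelled ERAP1+/-, or 129 and 343 CPM, a ratio of 2.66 (2.48 to 2.86). Its rank moved from 1329 to 336. Among the 8013 genes past the level of 4, 36 had a larger difference than Hepacam2, 43 a larger one than Atoh1 and 59 a larger one than Muc2. At the other end, 1846 genes had a larger difference than Tff3 and 1427 a larger one than Fcgbp.

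**Figure D2:**
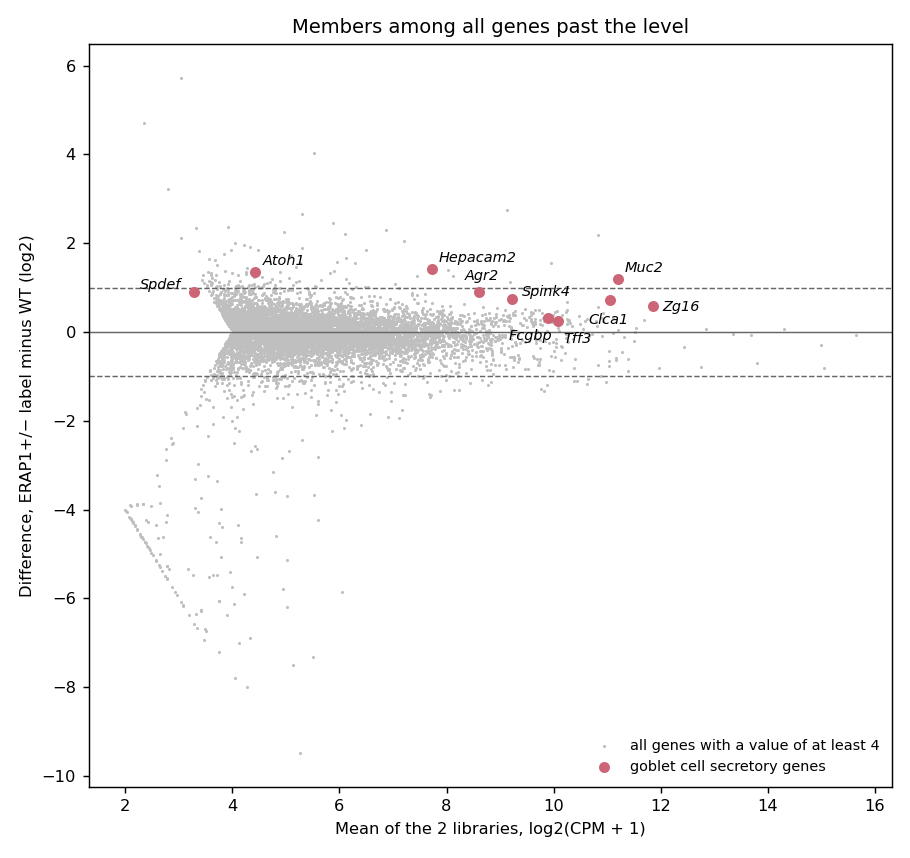
Difference between the libraries (log2, library labelled ERAP1+/- minus WT) against the mean log2(CPM + 1) of both libraries for the 8013 genes with a value of at least 4 in 1 or both libraries (grey) and the 10 members (red), with dashed lines at 2-fold. All members lie above 0, with Muc2, Hepacam2 and Atoh1 above the upper line, and Spdef, which did not reach a value of 4, is not among the grey genes.

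The make-up of the goblet cell reads, taken from the same counts, differed between the libraries, and this does not depend on how the libraries were scaled. Muc2 took 17.3% of the reads of the 10 genes in the WT library (exact interval 17.0% to 17.5%) and 24.1% in the other (23.9% to 24.3%). Zg16 took 33.7% (33.3% to 34.0%) and 30.8% (30.5% to 31.0%). Muc2 ranked behind Clca1 in the WT library and ahead of it in the library labelled ERAP1+/-, while Clca1 itself held 18.4% and 18.5%, with overlapping intervals (18.1% to 18.7%, and 18.3% to 18.7%). Tff3 had the smaller share in the library labelled ERAP1+/-, 7.95% against 11.1%, as had Fcgbp, 7.19% against 9.54%. Hepacam2 held 1.44% (1.35% to 1.53%) and 2.33% (2.25% to 2.42%). The order of the other members by level was the same in both libraries, and no counting intervals of neighbors in that order overlapped.

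**Figure D3:**
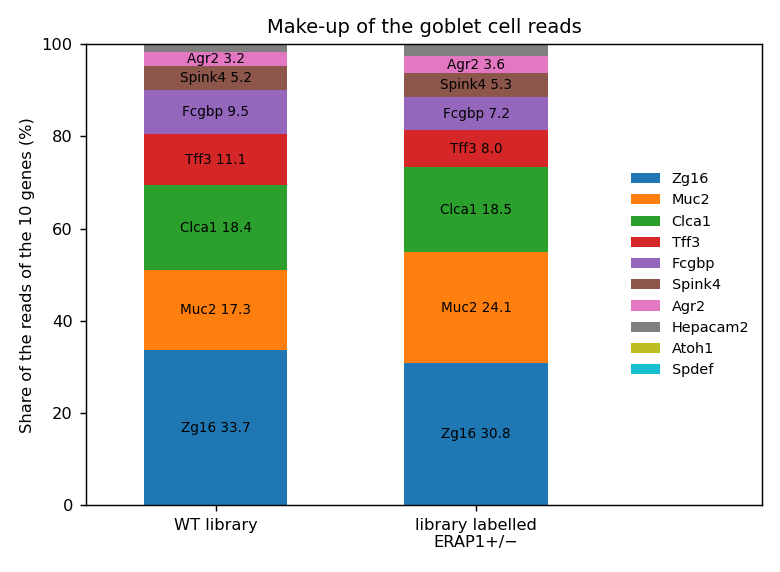
Share of each member in the summed reads of the 10 genes (%, bars start at 0 and add to 100) in the WT library and the library labelled ERAP1+/-, with the share written where it is above 3%. The Muc2 block is larger on the right (24.1% against 17.3%) and the Tff3 and Fcgbp blocks are smaller.

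Counting the members against each other puts the ratios given above in another form, free of the scaling, and adds no separate result. Per 1000 Muc2 reads there were 642 Tff3 reads for WT and 330 for the other library, a ratio of 0.51 (0.496 to 0.533), and 553 and 298 Fcgbp reads, a ratio of 0.54 (0.520 to 0.561). For Zg16 the ratio was 0.65 (0.637 to 0.672), for Clca1 0.72 (0.698 to 0.741), for Spink4 0.73 (0.695 to 0.761) and for Agr2 0.81 (0.770 to 0.859). All 6 secreted or folding partners were thus fewer per Muc2 read in the library labelled ERAP1+/-. Hepacam2 was the exception in the other direction, with 83.3 and 96.9 reads per 1000 Muc2 reads, a ratio of 1.16 (1.08 to 1.25). For Atoh1 (1.17, 0.925 to 1.48) and Spdef (0.87, 0.619 to 1.25) the interval includes 1. Per Tff3 read, a reference taken after its values were seen, Hepacam2 was 2.26 times as frequent (2.09 to 2.44) and Muc2 1.94 times (1.87 to 2.01).

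The direction of the members held under each scaling of the libraries, and their size did not. Scaled by the total count, the ratios were larger, 2.91 for Hepacam2, 2.50 for Muc2 and 1.28 for Tff3. Scaled by the reads of 13 genes of all gut epithelial cells, they were 3.15, 2.71 and 1.39. Those 13 genes had a median log2 difference of -0.31, and some, such as Cdh1 and Krt19, are also expressed in other epithelia. Scaled by the 6 of them that are typical of gut epithelium (Cdx1, Cdx2, Cdh17, Lgals4, Vil1 and Hnf4a), with 30591 and 35819 reads, the ratios were 2.72, 2.34 and 1.20. Over all genes past the level of 4, the median difference moved by 0.12 with the total count and by 0.24 with the 13 genes. A scaling multiplies the ratios of all genes by 1 factor, so that the order of the members and their distance from the other genes stay as they are by construction. The count of members past 2-fold was 4 with the total count or the 13 genes, Agr2 being the fourth, and 3 otherwise.

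**Figure D4:**
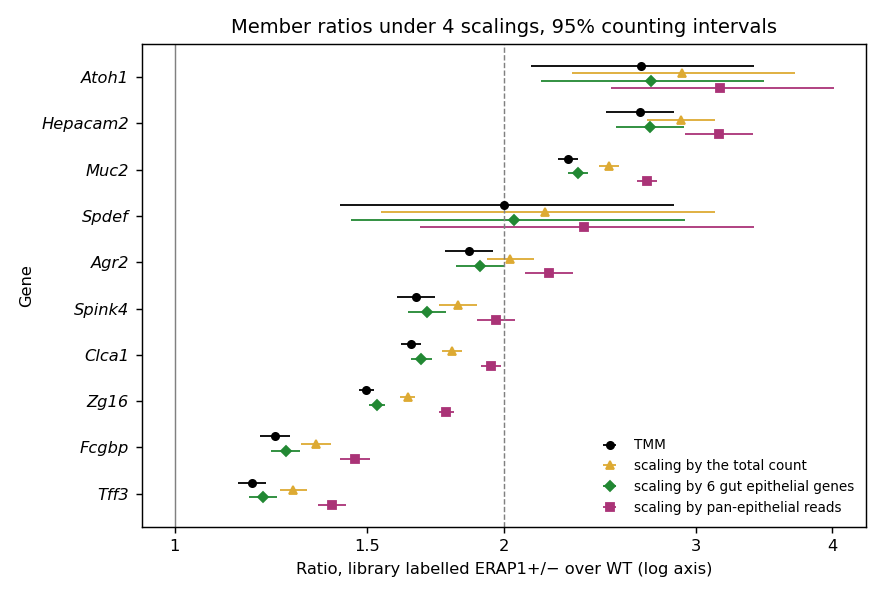
Ratio of the library labelled ERAP1+/- over WT (log axis) for each member under 4 scalings of the libraries, with bars for the exact 95% interval of counting error, a solid line at 1 and a dashed line at 2. Every interval lies above 1, and Tff3 has the lowest ratio and Atoh1 and Hepacam2 the highest, in an order that a scaling cannot change.

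The other goblet cell genes, a list of 34, were mostly higher too. Of the 32 with at least 10 reads over both libraries, 29 were higher and 3 (Klf4, Ttc39a and Ccl9) were lower, with a median log2 difference of 0.61. Over all genes past the level of 4, 47.3% were higher. This share also stands beside the counts of higher genes in the lists below, whose filter was 10 reads. Of the 26 past the level of 4, 6 were more than 2-fold higher and none more than 2-fold lower, beside 1.39% and 3.96% of all genes. The 6 were Ang4, an angiogenin-family antimicrobial ribonuclease (14.7 and 97.9 CPM), Slc12a8 (6.31 and 21.4 CPM), the chemokine gene Ccl6 (159 and 422 CPM), Rep15, a RAB15 effector (111 and 269 CPM), the disulfide isomerase gene Pdia5 (12.7 and 31.5 CPM) and Sytl2, a RAB27 effector of granule traffic (32.7 and 74.3 CPM). Ang4, Slc12a8 and Pdia5 reached the level of 4 only in the library labelled ERAP1+/-, with WT values of 3.97, 2.87 and 3.78. The list was chosen with earlier results of these data known, so nothing is read from its share past 2-fold. Scaled by the 13 epithelial genes, 12 of the list passed 2-fold.

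The 3 most abundant genes of that list did not move together. Klf4, a factor needed for goblet cell maturation that surface colonocytes also express, had 20240 and 15474 reads, a ratio of 0.64 (0.625 to 0.652). Sval1 had 4016 and 6493 reads, a ratio of 1.35 (1.30 to 1.41), and Guca2a, the guanylin gene, 3280 and 5221 reads, a ratio of 1.33 (1.27 to 1.39). Because of Klf4 the summed level of the list was only 1.10 times as high (1.08 to 1.11). St6galnac1 had no read in either library, and whether its reads were missed in the assignment was not checked.

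The genes nearest to Hepacam2 in level and difference, by the distance of the log2(CPM + 1) values over the 2 libraries, were Rep15 (111 and 269 CPM), Slc12a2 (143 and 260 CPM), Ccl6 (159 and 422 CPM), Creb3l1 (150 and 246 CPM) and Pdxdc1 (169 and 265 CPM). Rep15, Ccl6 and Creb3l1 stand in the list of other goblet cell genes. A likeness over 2 libraries rests on 2 values per gene and carries no more than that.

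Among 20 regulators of Notch signaling and the secretory lineage, 18 had at least 10 reads, and 16 of these were higher and 2 lower (17 and 1 under every scaling but TMM and DESeq2 size factors), with a median log2 difference of 0.41. Of the 10 past the level of 4, only Foxa2, a forkhead factor of the gut epithelium, was more than 2-fold higher. It had 425 and 1038 reads, a ratio of 2.04 (1.82 to 2.29). None was more than 2-fold lower, and over all genes past that level the shares were 1.39% higher and 3.96% lower. Below that level, Dll4 (24 and 80 reads) and Neurod1 (20 and 67 reads) were also higher by more than 1 on the log2 scale. Hes1, the Notch target that represses Atoh1, had 1409 and 1766 reads, a ratio of 1.05 (0.976 to 1.12). Sox9 had a ratio of 1.27 (1.20 to 1.35) and Sox4 one of 1.31 (1.19 to 1.44). Gfi1, which acts after ATOH1 in secretory cells and was picked out after its values were seen, had 12 and 68 reads, a ratio of 4.73 (2.54 to 9.61) at a level below the filter.

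Genes that fold secreted proteins were mostly higher, and those of mucus release went both ways. Of 16 genes of protein folding in the endoplasmic reticulum, 15 were higher and 1 was lower, with a median of 0.25. None of the 14 past the level of 4 was past 2-fold (1 with the 13 epithelial genes as the scale). The most abundant were Hspa5 (644 and 716 CPM), Hsp90b1 (456 and 645 CPM) and Calr (510 and 467 CPM), and Calr was the lower one except with the 13 epithelial genes as the scale. Plasma cells also use these genes, and the 7 plasma cell markers summed to 424 and 1865 CPM. Igha alone had 215 and 1437 CPM. With TMM, 5 of the 7 markers were higher and 2 (Sdc1 and Prdm1) lower. The part of plasma cells in the folding result was not tested. Of 21 genes of granule release and epithelial ion transport, 10 were higher and 11 lower, with a median of -0.03, which became 0.09 with the total count and 0.20 with the 13 epithelial genes as the scale (14 higher and 7 lower). Of these genes, 19 were past the level of 4, where 1.39% of all genes were more than 2-fold higher and 3.96% more than 2-fold lower. The chloride channel gene Cftr (45.3 and 105 CPM) and the potassium channel gene Kcnn4 (15.6 and 34.1 CPM) were more than 2-fold higher. Unc13d (8 and 32 reads), below the level of 4, was also higher by more than 1 on the log2 scale. The bicarbonate cotransporter gene Slc4a4 (329 and 125 CPM) was more than 2-fold lower. The abundant members Slc26a3, an anion exchanger (1048 and 692 CPM), and Marcks (285 and 235 CPM) were within 2-fold.

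Other secretory cells had higher markers as well, so that the pattern was not held by goblet genes alone. Among 13 enteroendocrine genes 10 were higher and 3 lower, and the median was 0.90. Of the 9 past the level of 4, 4 were more than 2-fold higher, beside 1.39% of all genes past it. The 4 were Insl5 (51.9 and 260 CPM), Gcg (19.6 and 74.7 CPM), Chga (34.9 and 88.4 CPM) and Chgb (64.1 and 130 CPM). The peptide hormone gene Pyy had 995 and 2007 reads, a ratio of 1.69, and Cpe one of 0.76. Of the deep crypt secretory markers, Reg4 had 4501 and 15827 reads, a ratio of 2.94 (2.84 to 3.04), and Kit 72 and 202 reads, a ratio of 2.34 (1.78 to 3.11). Lyz1, the lysozyme gene of Paneth cells, had 89 and 51 reads. The tuft cell list, with a median of 0.59 over 11 genes, had 2 genes past the level of 4 and none past 2-fold. Its genes Ptgs1, Dclk1 and Alox5ap had 222 and 211, 98 and 155, and 54 and 110 reads.

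Absorptive colonocytes went the other way. Of their 14 markers, 11 were lower and 3 higher, with a median of -0.68, or 10 and 4 with the 13 epithelial genes or the total count, with or without mitochondrial and ribosomal RNA, as the scale. Of the 13 past the level of 4, 4 were more than 2-fold lower, beside 3.96% of all genes past it. The 4 were Car4, Krt20, Ceacam20 and Emp1, with ratios from 0.39 to 0.47. Of these, 2 (Krt20 and Emp1) were left with the total count and 1 (Emp1) with the 13 epithelial genes as the scale. Fabp2 was more than 2-fold higher, with 56 and 299 reads, and Muc3 (2741 and 1612 CPM) and Saa1 (1663 and 1573 CPM) were within 2-fold. In the 9 crypt base and cycling genes with enough reads, all were higher and none passed 2-fold (1 with the 13 epithelial genes as the scale), with a median of 0.50 and with Top2a at 115 and 168 CPM and Mki67 at 59.7 and 84.6 CPM. The smooth muscle list, which marks how much muscle wall a sample holds, was lower in 10 of 10 genes with a median of -0.91, and its part in the values above was not tested.

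**Figure D5:**
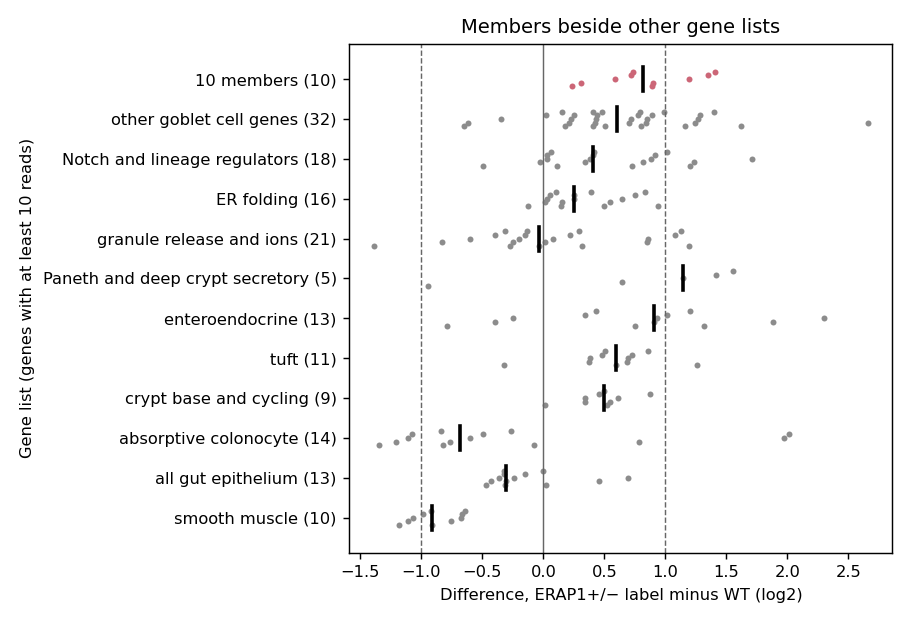
Difference of each gene (points, log2, library labelled ERAP1+/- minus WT, TMM-scaled) in the 10 members (red) and in 11 other lists (grey), with black bars for the medians, dashed lines at 2-fold, and in brackets the number of genes with at least 10 reads over both libraries. The medians run from 1.15 for the 5 Paneth and deep crypt secretory genes to -0.91 for smooth muscle, with the members at 0.81.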

How the data were processed

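The counts deposited by the authors, in 1 file per genotype, are whole numbers and were not normalized. Total RNA extracted with Trizol was pooled from 3 mice, and libraries were made with a QuantSeq 3' forward kit. HTSeq after STAR and RSEM after Bowtie2 are both described in the methods, while the submitters' processing notes name Bowtie2, RSEM and GRCm38. Which of these made the values is not stated. Reads of paralogs could be divided differently by each, and whether strand was used is not stated.

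From the counts, TMM factors (0.958 for WT, 1.04 for ERAP1+/-) came from edgeR 4.0.16 (R 4.3.3), then CPM and log2(CPM + 1), which understates differences of genes with few reads. The difference in total (8114826 and 8907515 reads) is removed by this scaling. A gene was counted as past 2-fold where the difference exceeded 1 and the value reached 4 in 1 or both libraries. Intervals are exact conditional binomial for ratios and Clopper-Pearson for shares (scipy 1.17.1), leave out variation between mice. Where no read was counted, the upper limit was 3 reads. No test was run, since quasi-likelihood tests cannot be fitted with 1 library per genotype. The 2-fold calls and the intervals were tried on simulated data with counting noise only. That simulation reused the scaled library sizes, so it tests neither the scaling nor the variation between mice. Alternatives were DESeq2 1.42.0 size factors, other scalings, a pseudocount of 0.1, other filters and a 4-fold threshold.

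The members and lists were chosen with earlier results of these data known. Named were all members, of each list the 3 most abundant genes and those past 2-fold, up to 6, and the 5 genes nearest to Hepacam2. Lists that only describe the tissue (smooth muscle, fibroblast, plasma cell, epidermis, skeletal muscle, small intestine, other mucous cells, sex) are given by their sums or single genes, and the 7 fibroblast genes had a median difference of -0.14. Mitochondrial and ribosomal RNA took 18.0% and 16.7% of the reads. All 10 members were found in GENCODE M21 and 6 in the RefSeq start-site windows.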

Additional observations from a re-analysis of the deposited data

How the results depend on the processing

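No direction of a member changed in any of the 60 recomputed member differences, which ran from 0.24 to 1.65 on the log2 scale. The median of the members, 0.81, was 1.04 with scaling by pan-epithelial reads, 0.93 with scaling by the total count, 0.91 with the total count without mitochondrial and ribosomal RNA, and 0.73 without Hepacam2. The median of the other goblet cell genes, 0.61, ran from 0.51 without Ang4 to 0.84 with pan-epithelial reads as the scale. The number of genes past 2-fold, 428 (111 higher and 317 lower), was 160 with a 4-fold threshold, 1390 where the filter was 10 reads, and 1434 where low values were kept. Scaling by the total count gave 166 higher and 248 lower, scaling by pan-epithelial reads 242 and 204, and the total count without mitochondrial and ribosomal RNA 157 and 260. The scaling by 6 gut epithelial genes, the reference to Tff3 and the counts past 2-fold within the other goblet cell list under each scaling were added after seeing the data. Depth limits Atoh1 and Spdef, whose intervals reach from 2.12 to 3.39 and from 1.42 to 2.86. No paired analysis was possible because only 1 library was made per genotype.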

Other observations

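Of 8 relatives of the members in the same gene families with at least 10 reads, 3 were higher and 5 lower in the library labelled ERAP1+/-, or 4 and 4 under every scaling but TMM and DESeq2 size factors. Clca3b, in the chloride channel accessory family of Clca1, had 104 reads for WT and 624 for the library labelled ERAP1+/-, a ratio of 5.01 (95% interval 4.07 to 6.23). Clca4a of the same family had 820 and 322 reads, a ratio of 0.33 (0.287 to 0.374). Reads of related copies can be shared in the counting, and whether Clca1 and Clca3b share any was not tested. Spink1, a trypsin inhibitor gene related to Spink4, was more abundant than any member but Zg16 in the WT library, with 17882 reads, and had 22121 in the other, a ratio of 1.03 (1.01 to 1.05). Scgb1a1, a secretoglobin gene best known from airway club cells and listed as a marker of other mucous cells, had 665 and 883 reads, a ratio of 1.11 (1.00 to 1.23), while Muc5b had 1 and 0 reads and Muc6 0 and 3.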
